A study of Mus musculus with 2 samples.

Results

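Integrin subunit genes were examined in RAW264.7, a mouse line of monocyte/macrophage type, of which 1 library was labelled SFRS8 siRNA and 1 was labelled negative control. The 10 genes are Itgam, Itgal, Itgax, Itga4, Itga5, Itgav, Itgb1, Itgb2, Itgb5 and Itgb7, taken by gene symbol from the 24034 genes of the deposited table. They were chosen by the FPKM values of these same 2 libraries, in which adhesion genes tended to be lower under the siRNA label, so their directions are a description and nothing was tested with them. Both cultures were grown in DMEM with fetal bovine serum, penicillin and streptomycin, and both titles carry a 5 d mark. The title of the control library reads WT, while its treatment label reads negative control. The gene SFRS8 is now called Sfswap and regulates splicing, and the dose and sequence of the siRNA were not in the labels.

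Integrins are heterodimers of an alpha and a beta chain that cross the plasma membrane and join the actin cytoskeleton to ligands on other cells or in the matrix. The beta-2 integrins are restricted to leukocytes. Macrophages use them to bind complement-coated particles and the ICAM proteins, while the alpha-4, alpha-5 and alpha-V chains bind fibronectin, VCAM-1, MAdCAM-1 or vitronectin, depending on the beta chain they join.

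Sfswap, the gene the siRNA was labelled against, did not have a lower level under the siRNA label, with 3.38 FPKM there and 2.92 FPKM in the control. Directions below therefore belong to the library labelled SFRS8 siRNA, not to a measured loss of Sfswap. FPKM counts fragments scaled for transcript length and library depth. The siRNA-labelled library held 55411201 estimated counts and the control 54847367. Each group has 1 library, so differences could not be set against replicate spread and carry no p-value. Of 10 macrophage markers listed, 8 had a mean of at least 1 FPKM. Mertk and Mrc1 were near 0, with 21 against 4 and 8 against 4 counts. The 10 summed to 15385 FPKM in the siRNA-labelled library and 17184 FPKM in the control, most of it Lyz2 (13998 and 15652 FPKM). Heart muscle markers summed to 89.1 FPKM in the siRNA-labelled library against 0.983 FPKM in the control, with 13 of 13 above 0 in the former and 5 of 13 in the latter. Fibroblast markers, from cells that also make several of these integrins, summed to 0.639 FPKM against 0.0279 FPKM, with 5 of 6 and 2 of 6 above 0 and Lum at 0 in both. Endothelial markers summed to 0.268 against 0.108 FPKM, and red blood cell markers to 8.87 against 0.114 FPKM. The part of these foreign transcripts in the integrin values was not tested.

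The 250 bases before the annotated start are shown for 4 of the genes, since Itga4, Itgb1 and Itgb7 had the largest differences and Itgam overlaps a second gene that begins just inside it. Capitals mark GAGGAA on either strand, the core letters of many sites of the myeloid factor PU.1. The windows are from RefSeq on GRCm38.p6, written 5′ to 3′ along each gene's own strand.
Itgam (chr7:128062390-128062639, plus strand): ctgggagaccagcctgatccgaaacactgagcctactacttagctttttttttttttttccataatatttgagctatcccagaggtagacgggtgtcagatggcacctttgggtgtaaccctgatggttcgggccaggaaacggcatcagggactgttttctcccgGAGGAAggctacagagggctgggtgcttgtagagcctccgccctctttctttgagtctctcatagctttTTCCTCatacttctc
Itga4 (chr2:79255176-79255425, plus strand): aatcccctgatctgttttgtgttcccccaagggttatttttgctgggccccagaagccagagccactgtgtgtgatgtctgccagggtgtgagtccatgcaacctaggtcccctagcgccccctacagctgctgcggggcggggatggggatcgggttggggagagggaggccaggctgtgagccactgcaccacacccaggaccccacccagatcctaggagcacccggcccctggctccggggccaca
Itgb1 (chr8:128685404-128685653, plus strand): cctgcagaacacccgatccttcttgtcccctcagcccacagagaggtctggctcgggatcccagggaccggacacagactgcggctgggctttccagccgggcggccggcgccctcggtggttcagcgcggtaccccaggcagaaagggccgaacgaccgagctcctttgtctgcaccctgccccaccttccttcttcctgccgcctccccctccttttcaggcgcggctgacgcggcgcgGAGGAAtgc
Itgb7 (chr15:102231936-102232185, minus strand): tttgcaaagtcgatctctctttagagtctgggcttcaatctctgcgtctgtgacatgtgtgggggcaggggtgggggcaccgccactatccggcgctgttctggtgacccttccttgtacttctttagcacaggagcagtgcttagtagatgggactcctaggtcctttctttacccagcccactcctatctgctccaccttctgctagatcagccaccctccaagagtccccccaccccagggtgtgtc
In the Itgam window the letters begin 84 and 15 bases before the start, and in the Itgb1 window 9 bases before it. None was found in the windows of Itga4 and Itgb7. Of the 8 genes with an entry, 4 held the letters, against 23.3% of all 32851 windows of this length. GC made up 49.6% of the Itgam window, 64% of that of Itga4, 68% of that of Itgb1 and 56% of that of Itgb7, against a median of 52.4% over all windows. A match is a description of the letters and not of a bound site.

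Levels spanned a wide range, from Itgb2 down to Itgax. In order of mean FPKM the genes were Itgb2, Itgam, Itgb7, Itga5, Itgb1, Itgb5, Itgal, Itga4, Itgav and Itgax. Neighbours from Itgam to Itgb5 in that order changed places between the libraries: Itgb1 (22.6 FPKM) was above Itga5 (22.1 FPKM) and Itgb7 (20.2 FPKM) in the siRNA-labelled library and below both in the control. Itgax had a mean of 0.167 FPKM and did not reach the mean of 1 FPKM set for counting, which the other 9 genes reached.

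**Figure D1:**
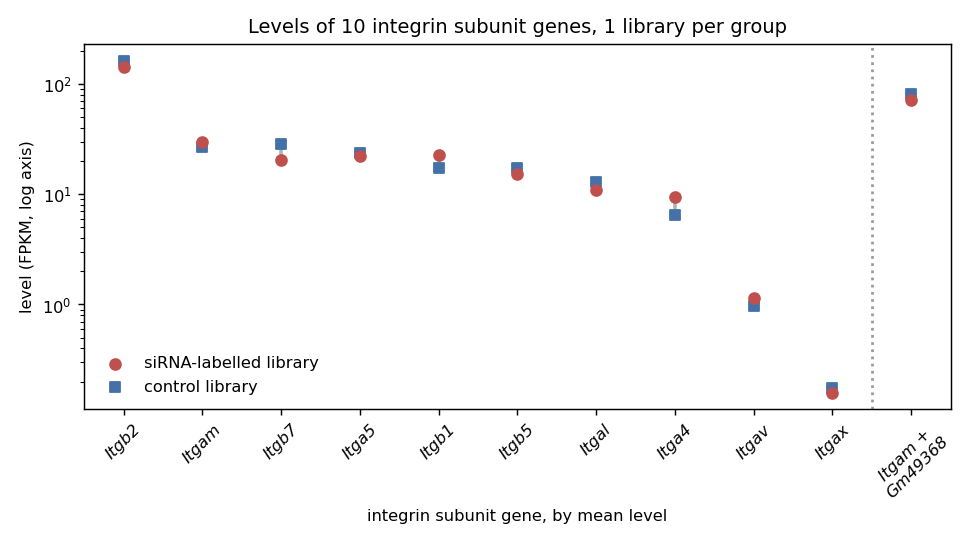
Level in FPKM on a log axis of each integrin subunit gene in the siRNA-labelled library (red circles) and the control library (blue squares), 1 library each, in order of mean level. The last column is Itgam summed with the overlapping gene Gm49368, which is lower in the siRNA-labelled library (71.9 against 80.5 FPKM) although Itgam alone is higher.

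Itgb2 encodes the beta chain shared by all leukocyte beta-2 integrins (ENSMUSG00000000290, chr10:77530252-77565686, plus strand). It had 141 FPKM in the siRNA-labelled library and 162 FPKM in the control, from 26363 and 30129 counts. The count ratio, taken per library total, was 0.866, with 95% exact limits of 0.838 and 0.895 that cover counting error only. On the log2(FPKM + 1) scale, which is used for all differences below, it differed by -0.20 (siRNA-labelled minus control). The median over the 10214 genes with a mean level of 1 FPKM or more was 0.11, and 10.1% of them had a lower difference than Itgb2. The 3 protein-coding genes closest to Itgb2 in level over the 2 libraries were Gpx4, Atp6v1f and Cfp, at log2 distances of 0.02, 0.03 and 0.05.

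Itgam encodes CD11b, the alpha chain of the complement receptor Mac-1 (ENSMUSG00000030786, chr7:128062640-128118491, plus strand). Its own row was slightly higher in the siRNA-labelled library, with 29.6 FPKM against 26.8 FPKM in the control, and a count ratio of 1.10 (1.04 to 1.17). The direction did not survive the addition of Gm49368 (ENSMUSG00000108596, chr7:128062683-128128160, plus strand), a gene annotated as readthrough that runs from Itgam toward Itgax. Of the longest Itgam transcript, 73.8% is also found in Gm49368, at 99.9% identity over 3453 bases. Gm49368 was the more abundant entry, with 42.3 FPKM in the siRNA-labelled library and 53.7 FPKM in the control. Summed, the pair had 21587 counts against 23851, a ratio of 0.896 (0.863 to 0.930) on the lower side. The Itgam row alone is therefore uncertain in direction, because reads of the shared bases can be assigned to either entry. Both entries start just downstream of the promoter window shown above, 43 bases apart.

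Itgal encodes CD11a, the alpha chain of LFA-1, which binds ICAM proteins (ENSMUSG00000030830, chr7:127296260-127335138, plus strand). It had 10.9 FPKM against 12.9 FPKM in the control, and a count ratio of 0.848 (0.781 to 0.919). Its difference of -0.22 was close to the -0.20 of its partner Itgb2. Itgax encodes CD11c, an alpha chain abundant on dendritic cells and some tissue macrophages (ENSMUSG00000030789, chr7:128129547-128150657, plus strand). It rested on 47 counts against 52, at 0.159 and 0.175 FPKM, and the limits of its ratio (0.381 to 2.17) show that no difference was detectable at this depth. Dendritic cell markers were also near 0, with a summed level of 0.143 against 0.0982 FPKM and Xcr1 at 0 in both libraries.

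The balance of Itgb2 with its alpha chains depended on how Itgam was counted. Itgam over Itgb2 was 0.210 in FPKM in the siRNA-labelled library and 0.165 in the control, a change of 0.35 on the log2 scale (0.25 to 0.45, counting error only). With Gm49368 added to Itgam the ratio was 0.511 against 0.495, a change of 0.043 (-0.028 to 0.11). Itgal over Itgb2 was 0.0777 against 0.0793, a change of -0.031 (-0.16 to 0.095). Itgb2 was more abundant than Itgam, Itgal and Itgax together, by 3.46 times in the siRNA-labelled library and 4.08 times in the control. With Gm49368 included, it was by 1.70 and 1.74 times.

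Itga4 encodes the alpha-4 chain, which pairs with beta-1 to bind VCAM-1 and fibronectin and with beta-7 to bind MAdCAM-1 (ENSMUSG00000027009, chr2:79255426-79333123, plus strand). It had 9.37 FPKM in the siRNA-labelled library and 6.40 FPKM in the control, from 8039 and 5443 counts. The count ratio was 1.46 (1.36 to 1.57), and the difference of 0.49 was the highest of the 9 measured genes. Of all measured genes, 91.2% had a lower difference. The 3 protein-coding genes nearest in level were Ggnbp2, Rnf11 and Washc2, each at a log2 distance of 0.02. Cerkl overlaps Itga4 on the other strand and matches 11.6% of its longest transcript, but it held 39 against 28 counts, and the summed ratio was also 1.46.

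The beta partners of Itga4 lay on opposite sides. Itgb1 encodes the widely used beta-1 chain (ENSMUSG00000025809, chr8:128685654-128733200, plus strand) and had 22.6 FPKM against 17.1 FPKM in the control, a count ratio of 1.32 (1.22 to 1.43). Itgb7 encodes the beta-7 chain, best known for guiding lymphocytes to the gut (ENSMUSG00000001281, chr15:102215995-102231944, minus strand). It had 20.2 FPKM against 28.4 FPKM, from 3431 and 4778 counts, a ratio of 0.711 (0.651 to 0.777). Its difference of -0.47 was the lowest of the measured genes, and 3.18% of all measured genes were lower still. Nearest to Itgb7 in level were Inppl1, Ipo4 and Abhd12, at log2 distances of 0.06, 0.12 and 0.14. Among lymphocyte markers, Cd3d and Pax5 were at 0 in both libraries, while Lck and Cd5 were present in both, at 2.52 against 3.04 FPKM and at 1.88 against 2.25 FPKM.

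Itga4 and Itgb7 lay furthest apart of the pairs compared. Itga4 over Itgb7 was 0.464 in FPKM in the siRNA-labelled library and 0.226 in the control, a change of 1.04 on the log2 scale (0.88 to 1.20). Itga4 over Itgb1 was 0.415 against 0.375, a change of 0.15 (-0.004 to 0.30) that counting error spans. Itgb1 over Itgb7 was 1.12 against 0.603, so the more abundant of these 2 beta chains was Itgb1 in the siRNA-labelled library and Itgb7 in the control. The ratios were not adjusted for GC content, which was 41.1% for Itga4, 44.8% for Itgb1 and 58.0% for Itgb7. Adjusted for the trend of all genes with GC content, described below, their differences were 0.27, 0.23 and -0.33, against 0.49, 0.38 and -0.47 before. These are levels of transcripts, and they do not give the assembled dimers at the cell surface.

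Itga5 encodes the alpha chain of the fibronectin receptor, which pairs with beta-1 (ENSMUSG00000000555, chr15:103344286-103366763, minus strand). It had 22.1 FPKM against 23.8 FPKM, with a count ratio of 0.930 (0.869 to 0.995), and so differed in the other direction from its partner Itgb1. Itga5 over Itgb1 was 0.980 in the siRNA-labelled library and 1.39 in the control, a change of -0.51 on the log2 scale (-0.66 to -0.36). This ratio was not adjusted for GC content, which was 57.3% for Itga5 and 44.8% for Itgb1. After the adjustment described below, the differences were 0.04 for Itga5 and 0.23 for Itgb1, against -0.10 and 0.38 before. Itgav encodes the alpha-V chain, which binds vitronectin, osteopontin and latent TGF-beta (ENSMUSG00000027087, chr2:83724397-83806916, plus strand). It stood near the minimum, at 1.15 against 0.969 FPKM, and the limits of its ratio of 1.18 spanned 1 (0.953 to 1.47). Itgb5, a partner of Itgav (ENSMUSG00000022817, chr16:33829665-33949338, plus strand), had 15.4 FPKM against 17.4 FPKM and a ratio of 0.881 (0.802 to 0.969). The pseudogene Gm38317 matches 10.5% of the longest Itgb5 transcript, and with its counts added the ratio was 0.875.

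**Figure D2:**
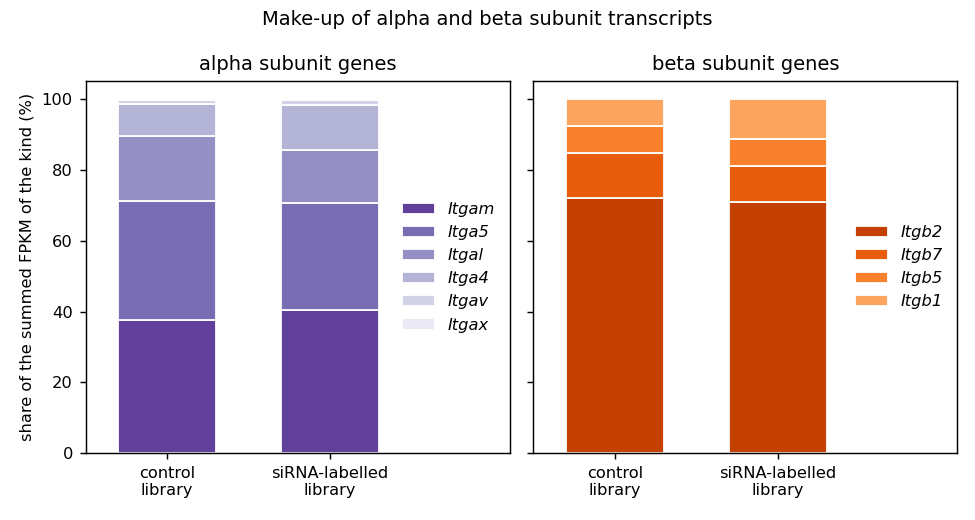
Share of the summed FPKM of 6 alpha subunit genes (left) and 4 beta subunit genes (right) held by each gene in the control and the siRNA-labelled library, 1 library each, without Gm49368. Itgb2 held 72.1% and 70.8% of the beta sum, while Itgb1 held 7.59% in the control and 11.4% in the siRNA-labelled library.

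Taken over all 10 genes, the summed level was 272 FPKM in the siRNA-labelled library and 296 FPKM in the control, or 315 and 350.1 FPKM with Gm49368. The sum of the 4 beta chains was lower, with 199 against 225 FPKM, although Itgb1 among them was higher. The alpha chains summed to 73.4 against 71.0 FPKM, but to 116 against 125 FPKM with Gm49368, which turns the direction. Itga4 held 12.8% of the alpha sum against 9.02% in the control, or 8.10% against 5.14% with Gm49368. Itgal held 14.9% against 18.1%, or 9.46% against 10.3%, so the size of its gap depended on how Itgam was counted. Itgb7 held 10.1% of the beta sum against 12.6%.

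Of the 9 measured genes, 5 had a difference below 0 (Itgal, Itga5, Itgb2, Itgb5 and Itgb7), against a background of 33.1% of all measured genes. With Gm49368 added to Itgam, 6 were below 0. A size limit of 0.32 log2 units was used. Past it on the lower side was 1 gene, Itgb7, against 5.53% of all genes, and on the higher side were 2, Itga4 and Itgb1, against 22.0%. Relative to the median of all genes the split was 2 lower (Itgal and Itgb7), against 9.70% of all genes, and 1 higher (Itga4), against 12.1%. None was 2-fold lower, where the background was 0.783%, or 2-fold higher, where it was 1.18%. The median over the 9 was -0.10, against 0.11 over all genes. These counts are in the contrast that chose the genes, so nothing is read from them.

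By each gene's own row, the sign of the difference split with the GC content of the transcript. The 4 genes above 0 had 41.1% to 48.9% GC in their longest transcript, and the 6 below 0, Itgax included, had 51.6% to 58.0%. Over all measured genes the median difference was 0.24 under 50% GC and 0.007 at or over it. Itgam, at 48.9% GC, was at -0.16 with Gm49368 added, where the split no longer holds. Itgax had no detectable difference. The split is by the difference that chose the genes, so nothing is read from it. Without Itgam, the higher genes ended at 44.8%. Over the 9 measured genes Spearman's rho between GC content and the difference was -0.80, which describes genes of the same 2 libraries. All measured genes followed GC content too, with a rho of -0.46 and medians of 0.34 in the lowest and -0.03 in the highest of 10 bins. Differences adjusted for that trend over all genes, an adjustment that keeps the overall median near 0.11, ran from -0.33 for Itgb7 to 0.27 for Itga4, against -0.47 to 0.49 before it. Itgb1 was at 0.23 after adjustment, Itgal at -0.14 and Itgb2 at -0.12. Itga5 moved to 0.04 and Itgav to -0.05, each to the other side of 0 but both below the overall median. Above that median were 3 of the 9 genes after adjustment and 4 before it. After adjustment 5 of the 9 genes were below 0 (Itgal, Itgb2, Itgb5, Itgb7 and Itgav), against 29.6% of all genes.

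**Figure D3:**
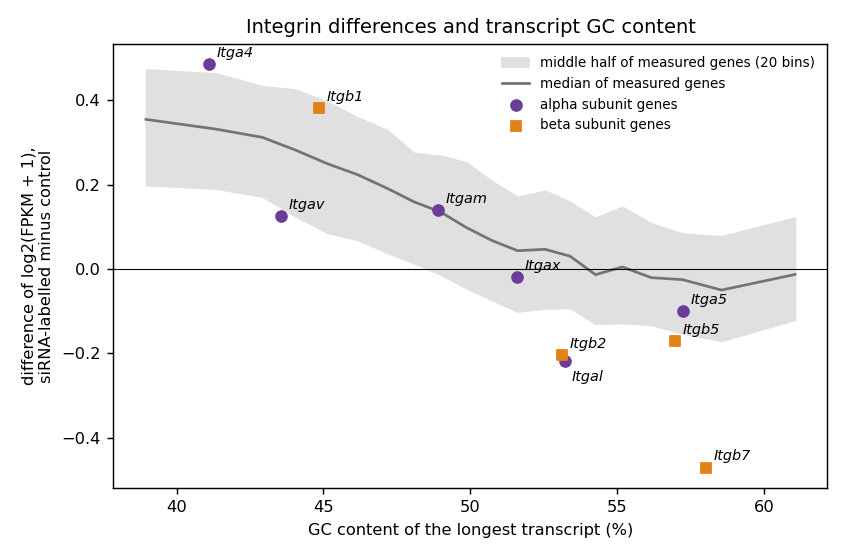
Change in log2(FPKM + 1) from control to the siRNA-labelled library against the GC content of the longest transcript in percent, for 6 alpha (circles) and 4 beta (squares) subunit genes, with the median (line) and interquartile range (band) of all measured genes in 20 bins. The genes tend to fall with GC content, from Itga4 at 0.49 to Itgb7 at -0.47, but not all lie near the line. Itgb7, Itgal and Itgb2 lie below the band, Itgb5 and Itgav just under its edge and Itga4 just above it.

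Most other integrin genes were near 0. Of 17 further subunit genes listed, 13 had a row and 3 averaged 1 FPKM or more. Itgb4, the partner of alpha-6 in epithelial cells, had 1.22 FPKM in the siRNA-labelled library and 2.24 FPKM in the control, a count ratio of 0.544 (0.435 to 0.674). Its difference of -0.55 lay below that of Itgb7, and its transcript had 60.0% GC. Adjusted for GC content, it was at -0.41, against -0.33 for Itgb7. Itga6, a laminin-binding chain, had 1.18 against 0.951 FPKM and Itga7, another one, 3.27 against 3.35 FPKM, and the limits of both ratios spanned 1. Itgb3, the osteoclast partner of Itgav, rested on 39 against 27 counts (0.106 and 0.0752 FPKM). Itga2b, of platelets, had 0.185 against 0.275 FPKM, Itga8 0.139 against 0.0643 FPKM and Itga10 0.127 against 0.0990 FPKM. Itgae, a partner of Itgb7, had 19 against 4 counts. Itga3, Itgb8, Itga9 and Itga2 held at most 16 counts in either library, and Itga1 was at 0 in both.

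Measured ligands of integrins all lay within the size limit. Of 10 measured ligand genes, 7 were below 0, against the same 33.1% of all genes, and the median was -0.11. None was past 0.32 log2 units on the lower side (5.53% of all genes) or the higher (22.0%). After adjustment for GC content, 5 were below 0 (29.6% of all genes) and the median was -0.003. Spp1 (osteopontin, a ligand of Itgav and Itga4 dimers) was the most abundant, at 6249 against 5410 FPKM, a count ratio of 1.15 (1.15 to 1.16). Tgfb1, whose latent form binds alpha-V integrins, had 50.4 against 58.1 FPKM, and F11r, a junction protein bound by LFA-1, 2.66 against 3.10 FPKM. Mfge8, a bridge between dying cells and alpha-V integrins, had 62.3 against 58.9 FPKM. Fn1 and Vcam1, the main ligands of alpha-4 with beta-1, were near 0, with 38 against 10 and 4 against 0 counts, and Vtn was at 0 in both. The matrix genes Col1a1 and Col4a1 were below the mean of 1 FPKM, with 102 against 4 counts (ratio 25.2, 4.23 to 1055) and 75 against 4 counts (18.6, 2.99 to 781). Fibroblast markers, which include Col1a1, summed to 323 against 16 counts, and their part in these ligand values was not tested. Fn1, Vcam1, Vtn, Col1a1 and Col4a1 were named after their values were seen.

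Genes that regulate integrin activation, in either direction, had shares close to or under those of all genes. Of 18 measured, 5 were below 0 (33.1% of all genes), 3 were past the limit on the higher side (22.0%) and 1 on the lower (5.53%), with a median of 0.15. The 3 were Rap1a and Rap1b, the GTPases that recruit talin to beta chains, and Fyb, an adaptor of the same route. Rap1b had 49.2 FPKM against 31.1 FPKM, a count ratio of 1.58 (1.48 to 1.69), and Rap1a 25.8 against 16.9 FPKM (1.52, 1.38 to 1.68). Fyb had 23.5 against 17.8 FPKM. Tln1 (talin), which binds beta tails, had 58.5 against 68.7 FPKM, a ratio of 0.850 (0.826 to 0.875). The lower gene was Flna, a filamin that competes with talin, named after its value was seen, at 32.6 against 41.2 FPKM. The GC content was 38.8% for Rap1a, 39.9% for Rap1b, 57.0% for Tln1 and 54.0% for Flna, and the adjusted differences were 0.34, 0.42, -0.10 and -0.24.

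Signalling and adhesion complex genes had a median between those of the ligands and the activation genes. Of 33 measured, 12 were below 0 (33.1% of all genes), 5 were past the limit on the higher side (22.0%) and none on the lower (5.53%), with a median of 0.04. Arhgef6, an exchange factor for Rac that binds parvins, had 15.0 against 10.9 FPKM, Lims1 (PINCH, of the complex with integrin-linked kinase) 11.5 against 8.74 FPKM and Cbl, a ubiquitin ligase, 3.74 against 2.74 FPKM. The most abundant members were Vasp, an actin elongation factor, at 107 against 103 FPKM, and Lpxn, a paxillin relative of leukocytes, at 60.9 against 63.3 FPKM.

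Trafficking genes, which carry integrins through endosomes, had the highest median of the lists, 0.21 over 12 measured genes. Of these, 3 were below 0, against 33.1% of all genes, and 4 were past the limit on the higher side, against 22.0%. Numb, an endocytic adaptor, had 9.37 against 5.47 FPKM, a count ratio of 1.71 (1.49 to 1.97). Rab5a, of early endosomes, had 6.19 against 3.68 FPKM (1.68, 1.45 to 1.95), and Rab21, which binds alpha tails, 8.30 against 5.19 FPKM (1.60, 1.41 to 1.82). After adjustment for GC content the 3 were at 0.65, 0.53 and 0.39. Arf6, a GTPase of recycling, had 110 against 88.5 FPKM and Ehd1 75.1 against 71.3 FPKM.

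Other adhesion and surface genes lay on both sides of 0. Of 20 measured, 12 were below 0 (33.1% of all genes), 2 were past the limit on the lower side (5.53%) and 4 on the higher (22.0%), with a median of -0.02. Selplg (PSGL-1, the ligand of selectins) had 8.65 FPKM in the siRNA-labelled library and 14.0 FPKM in the control, a count ratio of 0.617 (0.554 to 0.686). Its difference of -0.64 was -0.63 after adjustment for GC content. Adam10 and Adam9, proteases that shed surface proteins, had 9.79 against 6.41 FPKM and 14.8 against 10.5 FPKM. Bsg (basigin) had 456 against 417 FPKM and Cd9, a tetraspanin that associates with integrins, 195 against 206 FPKM. Over the 5 lists together, 3 of 93 measured genes were past the limit on the lower side and 16 on the higher, against 5.53% and 22.0% of all genes. Relative to the median of all genes they were 7 and 7, against 9.70% and 12.1%.

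**Figure D4:**
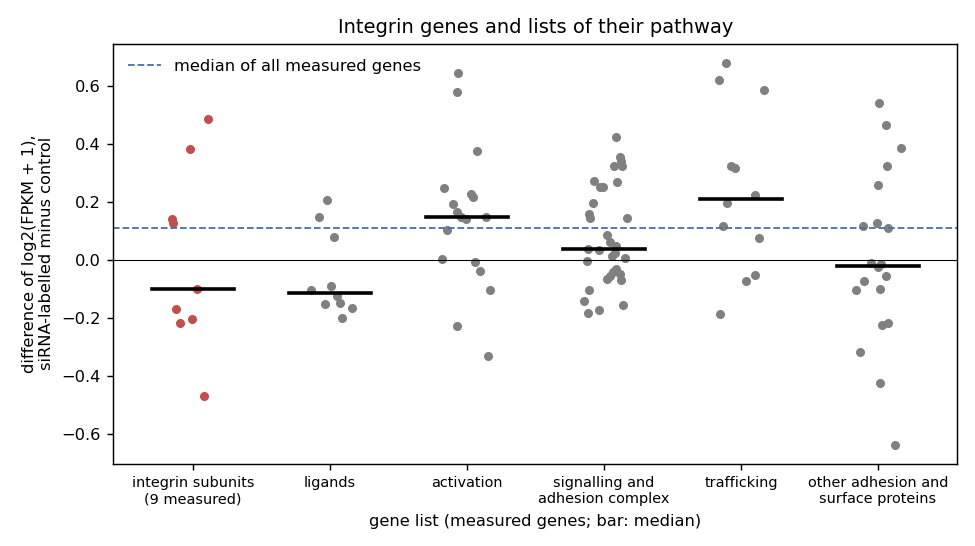
Change in log2(FPKM + 1) from control to the siRNA-labelled library of each measured gene (points) in the integrin subunits and 5 lists of their pathway, with list medians (bars) and the median of all measured genes at 0.11 (dashed). Without GC adjustment, integrin subunits and ligands have the lowest medians, -0.10 and -0.11, and trafficking genes the highest, 0.21. After it these medians are -0.037, -0.003 and 0.18.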

How the data were processed

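Poly(A) RNA was sequenced in 2 libraries, grouped by the treatment labels. HISAT2 2.0 and StringTie 1.3.0 are listed in the submitters' processing notes. For genome build, annotation and strandedness, the sources used here give nothing. The deposited FPKM, per the file headers, were scaled by the authors for length and library size. The deposited estimated counts are whole numbers that pile up on multiples of 4 (45.1% and 42.7% of counts from 1 to 20), so 4 counts were taken as 1 read pair. GENCODE vM21 (GRCm38) holds all 24034 identifiers, 21614 with identical coordinates, and 9 of the 10 integrin genes among them; the end of Itgb2 differed.

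Differences are of log2(FPKM + 1), which understates low genes. Limits are Clopper-Pearson limits at 95% on read pairs, conditional on their sum; those of ratios between genes use a normal quantile of 1.96 on Poisson errors. They cover counting error only. GC content was that of the longest transcript, and its trend was fitted by lowess (span 0.3). Shared sequence was at least 98% identity over 100 bases (blastn 2.17.0). The extraction text of the labels mentions an adipose type, while cell line and cell type name RAW264.7.

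The genes and lists were chosen with earlier results of these data known. Named genes were all subunits and, per list, the 3 that differed most and the 2 of highest mean FPKM, plus the 3 nearest in level to Itgb2, Itgb7 and Itga4. Flna, Fn1, Vcam1, Vtn, Col1a1 and Col4a1 fall outside this rule and were named after their values were seen. The steps were tested on simulated data. The software was statsmodels 0.14.6, scipy 1.17.1, matplotlib 3.10.9, numpy 2.4.6 and pandas 2.3.3 under Python 3.11.15.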

Additional observations from a re-analysis of the deposited data

How the results depend on the processing

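No paired analysis was possible because each group has 1 library. The median of the integrin genes was below 0 under all alternatives run, but moved from -0.10 to -0.21 relative to the median of all genes, -0.053 with FPKM scaled to equal totals, -0.037 after GC adjustment and -0.060 with no minimum. It was -0.16 with Gm49368 added to Itgam and -0.15 without genes sharing sequence. With Gm49368 added to Itgam, an alternative chosen after the data were seen, the log2 change of Itgam over Itgb2 moved from 0.35 to 0.043. That of Itgam, Itgal and Itgax together over Itgb2 moved from 0.24 to 0.033, and that of Itgam over Itgal from 0.38 to 0.074. Ratios between genes were not adjusted for GC content. Integrin genes past 0.32 log2 units on the lower side numbered 1 of 9 (5.53% of all genes). They were 2 relative to the median of all genes (9.70% of all genes) and 0 at a limit of 1.5-fold. Those higher numbered 2 (22.0% of all genes), but 1 with a pseudocount of 5 or relative to the median (12.1% of all genes for the latter). They were also 1 without genes sharing sequence (chosen after the data were seen), and 0 after GC adjustment or at 1.5-fold.

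Activation genes below 0 numbered 5 of 18, but 3 with FPKM scaled to equal totals or adjusted for GC content. Signalling genes numbered 12 of 33, but 20 relative to the median and 7 after GC adjustment. Ligands numbered 7 of 10, but 4 at a mean of at least 5 FPKM. Trafficking genes numbered 3 of 12, but 5 of 14 with no minimum and 1 at 5 FPKM. Of all measured genes, 33.1% were below 0, and 29.6% after GC adjustment. Values relative to the median split all genes evenly by definition. Fewer genes are counted at 5 FPKM, so counts there have a smaller base. Over the 5 lists, 3 of 93 genes were lower past the limit (5.53% of all genes). They were 1 with a pseudocount of 5, after GC adjustment or at 1.5-fold, and 7 relative to the median (9.70% of all genes). Higher were 16 (22.0% of all genes), but 8 with a pseudocount of 5, 7 relative to the median (12.1%) and 4 at 1.5-fold. The shares of all genes past the limit under the other settings are not given here. The cause of these shifts was not tested. Depth limits Itgax and Itgav.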
